A study of Homo sapiens with 4 samples.

Results

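The MYC, PVT1 and CCDC26 region was taken as chromosome 8 between 127 Mb and 130 Mb of GRCh38, chosen by position and not by any measured value. It is 3 Mb of band 8q24 that holds the MYC gene, the long noncoding RNA genes PVT1 and CCDC26, and the blood enhancer cluster near 129.5 Mb. H3K27Ac, an acetylated histone residue found at enhancers and promoters in use, was profiled by ChIP sequencing of MOLM13 cells, an acute myeloid leukaemia line with an MLL-AF9 fusion. One group of cells received 500 nM SNDX-50469, a small molecule that keeps Menin from binding MLL, together with 500 nM OTX015, which displaces BET proteins from acetylated histones. The other group received 500 nM OTX015 alone, so BET inhibition was common to both groups, and both were harvested after 16 hours. The design therefore addresses what Menin inhibition adds to BET inhibition at this locus, and cells without OTX015 were not analysed here. The peak lists held 1308 of 86207 peaks in the region with the combination, and 735 of 55852 peaks with OTX015. These are 1.52% of the combination list and 1.32% of the OTX015 list. There was 1 library per treatment, so no difference between treatments could be checked against replicate error, and none was tested.

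MYC encodes a transcription factor that drives growth and cell division, and its transcription in leukaemia cells is known to depend on BET proteins. PVT1 lies just downstream of MYC, carries enhancers within its gene body, and has a promoter known from other cell types to compete with that of MYC for enhancer contact. CCDC26 lies far downstream and hosts a cluster of enhancers that is bound by haematopoietic transcription factors and contacts the MYC promoter in blood stem and leukaemia cells. H3K27Ac carries no strand, so a peak in a place where genes overlap belongs to none of them in particular.

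Coordinates are those of GRCh38. MYC lies at chr8:127735434-127742951 on the plus strand and spans 7.52 kb. PVT1, also on the plus strand, lies at chr8:127794524-128101256, spans 307 kb and begins 0.0591 Mb past the 5′ end of MYC. CCDC26 lies on the minus strand at chr8:129351694-129680239, spans 329 kb, and its 5′ end is 1.94 Mb past that of MYC. The enhancer cluster was taken as 100 kb either side of 129.5 Mb, which falls wholly inside the CCDC26 gene body. Gene bounds are those of RefSeq gene records; exons, introns and UTRs were not used here.

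Cover is the length of a stretch lying under peaks. The −log10 q of a peak is the peak caller's significance within 1 library. Enrichment is the mean pileup of fragments over a peak divided by the background pileup of that library. Background was 1.47 fragments per base in the combination library and 0.764 in the OTX015 library, 1.92 times as deep with the combination. The weakest listed peaks accordingly stood 4.76 times over background with the combination and 6.54 times with OTX015. A wider cover with the combination can thus include acetylation too weak to be listed with OTX015, and cover is given below as deposited and then at 1 common enrichment, where its direction turned.

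Across the region, peaks covered 1069 kb (35.6%) with the combination and 436 kb (14.5%) with OTX015, a ratio of 2.45. In the remaining 25.4 Mb of 8q24 they covered 28.1% with the combination and 15.3% with OTX015, a ratio of 1.84, and in the rest of chromosome 8 the ratio was 2.39. The region was therefore covered 1.27 times as densely as the rest of 8q24 with the combination, and 0.951 times as densely with OTX015. With a −log10 q of at least 2 asked of both lists, these values were 1.02 with the combination and 1.14 with OTX015, so their order depended on the threshold. The nearer parts of 8q24 were like the region. In windows of 3 Mb the ratio was 2.86 from 118 Mb, 2.46 from 121 Mb, 2.66 from 124 Mb and 2.44 from 130 Mb. It was 1.20 to 1.69 in the windows from 133 Mb on. The region ranked 4 of 9 by this ratio, and the window from 124 Mb had more combination cover (36.2%). Of the region's bases, 8.46% lay under peaks of both lists, 27.2% under combination peaks alone and 6.06% under OTX015 peaks alone. The excess with the combination lay in peaks of low enrichment. The median −log10 q of the region's peaks was 1.67 with the combination and 1.30 with OTX015, and the highest were 7.88 and 10.6. Only 22 of the 1308 combination peaks reached 6.54 times background, as all 735 OTX015 peaks did. That is 1.68% of the region's combination peaks, against 1.68% in the rest of 8q24 and 1.35% of the whole combination list, so the scarcity is that of the list. When combination peaks were kept only if they reached this lowest enrichment of the OTX015 list, the direction turned. Cover of the region was then 42.9 kb with the combination and 436 kb with OTX015, a ratio of 0.0985. That limit removes no OTX015 peak and leaves 1160 of the 86207 combination peaks. A turn of direction at the common enrichment, here and below, was therefore largely set by the limit itself. At a −log10 q of at least 2 the direction stayed, at a ratio of 3.49, although the deeper combination library reaches a given q at a lower enrichment.

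MOLM13 is known to carry extra copies of chromosome 8. Other chromosomes held 51.9% of the combination peaks and 56.6% of the OTX015 peaks, and the part of copy number in these levels was not tested. A Poisson background of 1 constant per library accounts for the lowest peak values of each list, and the 2 input libraries were not used here. The myeloid identity of the cells was borne out at 5′ ends: 6 of 8 myeloid markers had a peak within 1 kb with the combination and 6 of 8 with OTX015, AZU1, FLT3, LYZ, MPO and SPI1 with both. CD33 had none in either list. Of 18 markers of B cells, T cells, erythroid cells, epithelium and fibroblasts, 3 had one with the combination (CD79A, CD3D and KLF1) and 1 with OTX015 (CD79A).

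**Figure D1:**
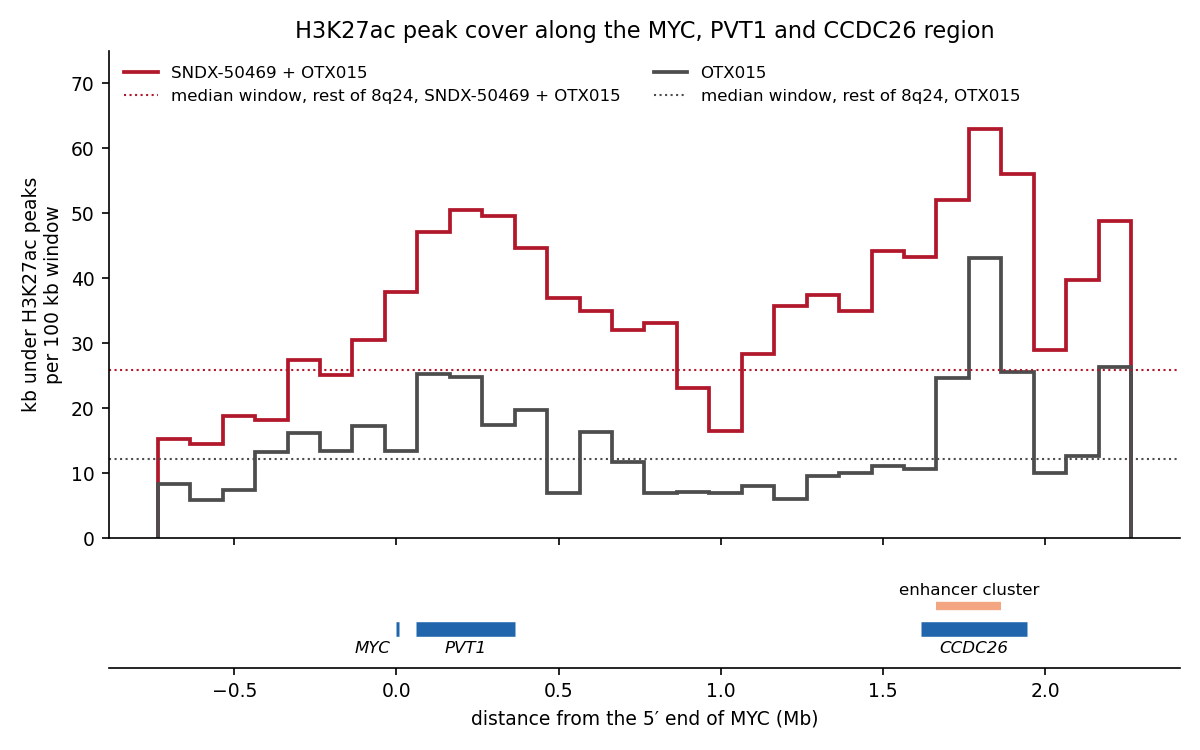
Length under H3K27Ac peaks in each 100 kb window (y axis, kb) by distance from the 5′ end of MYC (x axis, Mb), for SNDX-50469 plus OTX015 (red) and OTX015 (grey); dotted lines give the median window of the rest of 8q24 and bars the genes. Cover was highest over CCDC26 in both lists, at 62.9 kb with the combination and 43.1 kb with OTX015, and was higher with the combination in all 30 windows.

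Cover followed a similar course along the region under both treatments, with a shoulder over PVT1 and a summit over CCDC26. The 5 most covered windows with the combination were 3 over CCDC26, at 62.9, 56.0 and 52.1 kb per 100 kb, and 2 over PVT1, at 50.5 and 49.6 kb. With OTX015 the same summit window, 129.5 to 129.6 Mb, held 43.1 kb. The next OTX015 windows held 26.3 kb (over CYRIB), 25.5 kb (CCDC26), and 25.2 and 24.8 kb (PVT1). Among the 284 windows of 8q24 the summit ranked 10 with the combination and 9 with OTX015, so it was among the densest of the band without being the densest. Over the 30 windows Pearson's r between the lists was 0.766 and Spearman's rho 0.685, given as a description, since neighbouring windows share libraries and background. All 30 windows had more cover with the combination, as did 222 of 254 windows in the rest of 8q24. Every window of the band before the region also had more. Windows with less lay at 131.1 Mb and from 134.9 Mb on, so more cover throughout was not particular to the region. At the common enrichment, which removes combination peaks alone, 0 of 30 and 0 of 254 had more. The differences were largest in the windows that lead up to the 3′ end of CCDC26 and at the 3′ end of PVT1. The window from 129.2 Mb held 44.2 kb with the combination and 11.1 kb with OTX015, that from 129.3 Mb 43.2 and 10.7 kb, and that from 128.0 Mb 49.6 and 17.4 kb. They were smallest upstream of MYC, where the window from 127.3 Mb held 18.2 kb with the combination and 13.3 kb with OTX015.

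**Figure D2:**
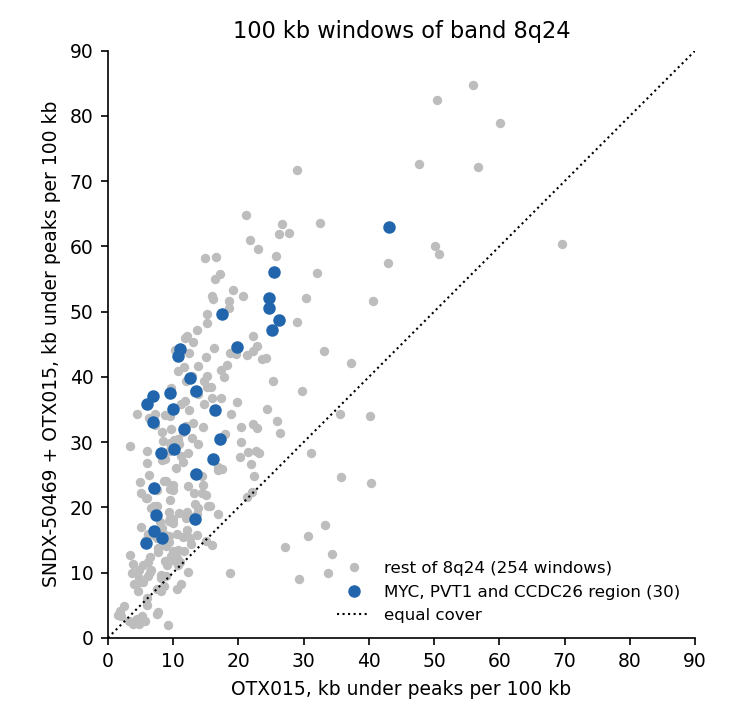
Length under H3K27Ac peaks in 100 kb windows of band 8q24 with SNDX-50469 plus OTX015 (y axis, kb) against OTX015 (x axis, kb), for the 30 windows of the region (blue) and 254 windows of the rest of the band (grey). Every blue point lies above the dotted line of equal cover, and the grey cloud extends to both sides of it. Grey points below the line are windows at 131.1 Mb and from 134.9 Mb on.

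At a finer scale, 297 of the 300 tiles of 10 kb had enough cover to be compared. With the combination, 190 of them (64.0%) were at least 2-fold higher, against 54.1% of 24465 tiles over all chromosomes, 51.9% in the rest of 8q24 and 62.7% in the rest of chromosome 8. Only 5 (1.68%) were at least 2-fold lower, against 17.8% over all chromosomes, 8.55% in the rest of 8q24 and 8.85% in the rest of chromosome 8. All 5 lay upstream of MYC. The nearest, chr8:127650001-127660000, began 85.4 kb before the 5′ end of MYC and held 0.019 kb with the combination and 2.13 kb with OTX015. The split turned at the common enrichment, with 2 of 234 tiles (0.855%) at least 2-fold higher and 225 (96.2%) lower, against 0.332% and 96.2% over all chromosomes.

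MYC itself was marked by weaker peaks than CCDC26 in both lists. The locus, the gene with 10 kb either side, held 16 peaks covering 12.0 kb (43.5%) with the combination and 6 peaks covering 4.44 kb (16.1%) with OTX015. Protein-coding loci at least 2-fold higher with the combination made up 39.4% of the 7563 compared, so this count is common among genes. At the common enrichment the locus held no combination peak and the same 4.44 kb with OTX015, a difference of −4.44 kb. The combination list had a peak on the 5′ end, chr8:127735311-127735744, only 0.434 kb wide, with a −log10 q of 1.45, an enrichment of 4.95 and rank 1040 of 1308 in the region. No OTX015 peak met it. The OTX015 peak nearest the promoter, chr8:127736388-127738319, was 1.93 kb wide, lay inside the gene and reached the window of 1 kb around the 5′ end by 47 bp. Its −log10 q was 1.62, its enrichment 7.55, and 76.0% of it lay under a combination peak of enrichment 5.15. It ranked 136 of 735 in the region, where the median OTX015 enrichment was 6.96. The highest −log10 q anywhere in the MYC locus was 2.16 with the combination and 1.62 with OTX015, and neither list had a peak of 3 or more there. An enrichment of 4.95 is below 6.54, the lowest the OTX015 list holds, so that list could not show a peak of that size. Signal at this site with OTX015 was not measured here, and the part of depth was not tested.

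**Figure D3:**
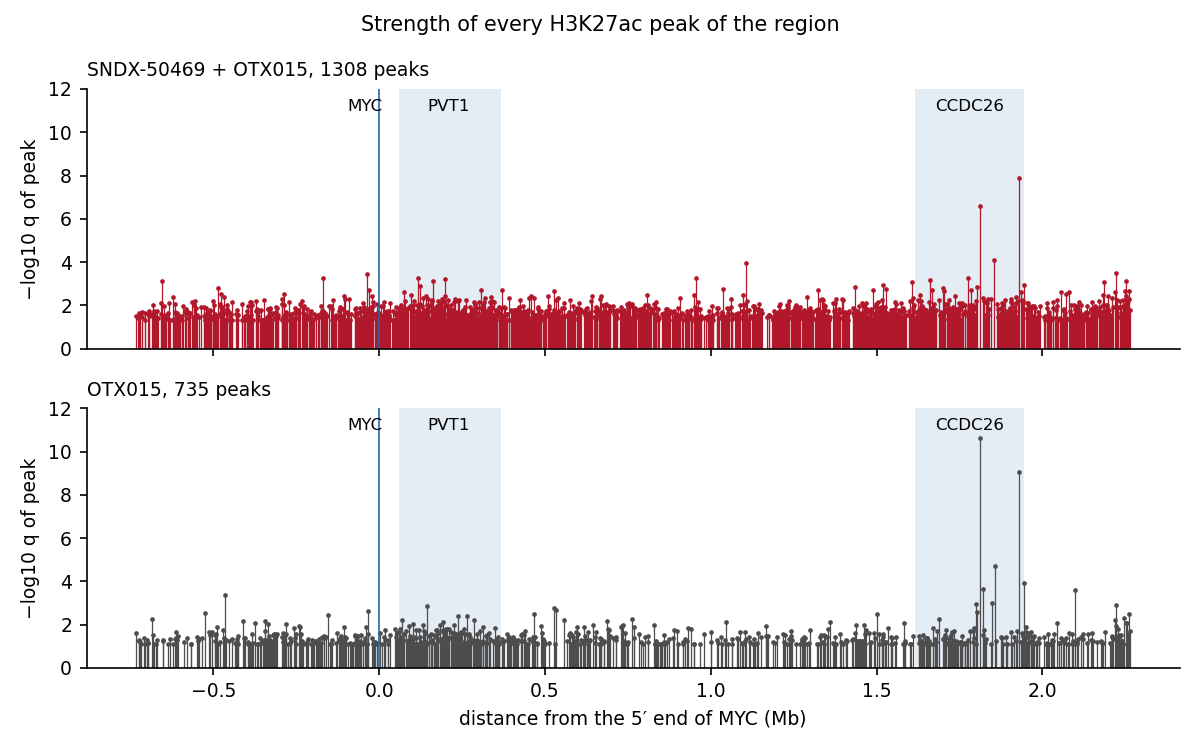
The −log10 q of every H3K27Ac peak (y axis) by distance from the 5′ end of MYC (x axis, Mb), with SNDX-50469 plus OTX015 above and OTX015 below; shading marks PVT1 and CCDC26 and the line MYC. The few tall peaks stand in CCDC26, at up to 7.88 with the combination and 10.6 with OTX015, and no peak of the MYC locus passes 2.16.

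PVT1 showed many modest peaks along its whole length. Its gene body held 165 peaks covering 152 kb (49.4%) with the combination and 126 peaks covering 70.3 kb (22.9%) with OTX015, 2.16 times as much. The first 100 kb held 48.8 kb with the combination and 26.3 kb with OTX015, and the last 100 kb held 50.04 and 17.2 kb. Peaks with a −log10 q of at least 2 numbered 42 with the combination and 7 with OTX015, and those of at least 3 numbered 3 and 0. At the common enrichment 1.37 kb of the gene body remained with the combination, against 70.3 kb with OTX015. The promoter was marked in both lists. The combination peak chr8:127794078-127796743 spanned the 5′ end, with a width of 2.67 kb and an enrichment of 5.47. The OTX015 peak chr8:127794671-127796810 began just inside the gene, with a width of 2.14 kb and an enrichment of 7.63, and 96.9% of it lay under the combination peak. Between MYC and PVT1 cover was 34.6% with the combination and 7.44% with OTX015, a ratio of 4.65. This stretch held no combination cover at the common enrichment, against 3.09 kb with OTX015.

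**Figure D4:**
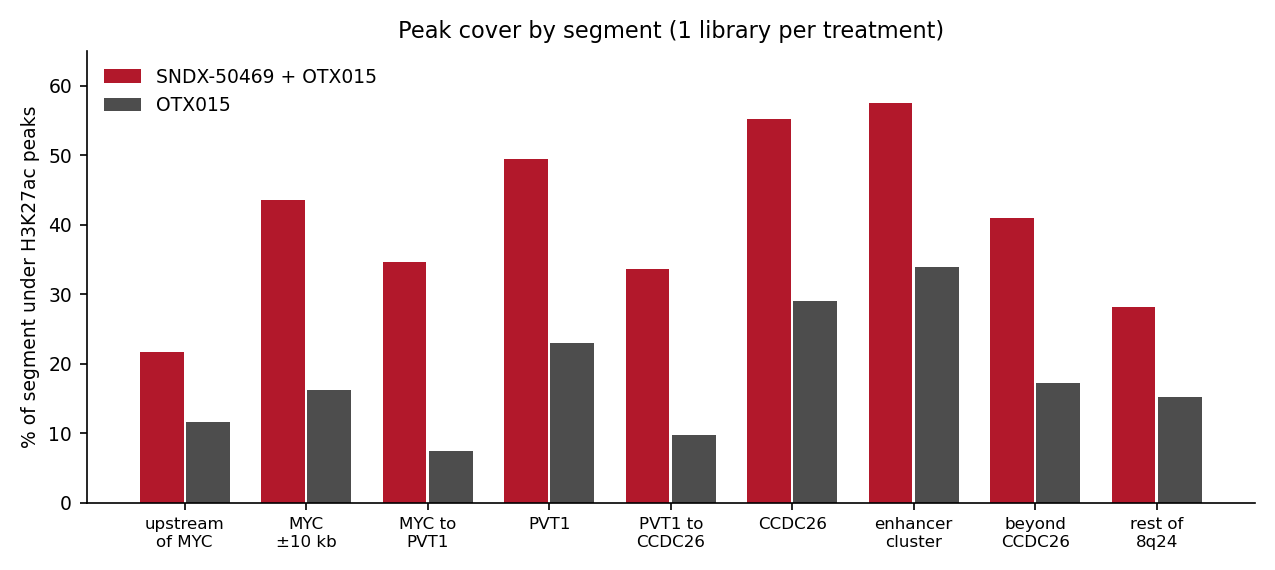
Share of each segment under H3K27Ac peaks (y axis, %) with SNDX-50469 plus OTX015 (red) and OTX015 (grey), 1 library each, so without error bars; the enhancer cluster lies within CCDC26. Of the 3 gene bodies named, CCDC26 was the most covered, at 55.2% with the combination and 29.1% with OTX015, and the stretch between MYC and PVT1 the least covered with OTX015, at 7.44%.

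CCDC26 carried the strongest acetylation of the region under both treatments. Its gene body held 135 peaks covering 181 kb (55.2%) with the combination and 85 peaks covering 95.5 kb (29.1%) with OTX015, a ratio of 1.90. The enhancer cluster alone held 115 kb (57.5%) with the combination and 67.7 kb (33.8%) with OTX015, a ratio of 1.70. Of the region's peaks at least 3 kb wide, CCDC26 held 14 of 32 with the combination and 6 of 10 with OTX015. When peaks of −log10 q of at least 2 alone were counted, CCDC26 made up 36.5% of the region's cover with the combination and 65.2% with OTX015. At the common enrichment 77.0% of the combination cover left in the region was in CCDC26. That was 33.0 kb with the combination, against 95.5 kb with OTX015, and in the cluster 26.7 kb with the combination, against 67.7 kb, a ratio of 0.394. The cluster's ratio was below those of the 7 consecutive segments as deposited and above them at the common enrichment.

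A small number of wide peaks stood out from this cover. The first, 1.81 Mb past the 5′ end of MYC and within the cluster, was chr8:129540807-129553219 with the combination (12.4 kb, enrichment 9.46, −log10 q 6.59) and chr8:129539736-129553250 with OTX015 (13.5 kb, enrichment 18.6, −log10 q 10.6). Among all peaks of 8q24 it ranked 3 with the combination and 1 with OTX015. The second lay 1.93 Mb past MYC, close to the promoter of CCDC26. It was chr8:129664019-129668434 with the combination (4.42 kb, enrichment 10.4, −log10 q 7.88) and chr8:129661450-129668219 with OTX015 (6.77 kb, enrichment 16.5, −log10 q 9.06). It ranked 1 in the whole of chromosome 8 with the combination and 3 with OTX015. Both elements were thus among the strongest of the chromosome in each list, and they changed places between the lists. The third, also in the cluster, was chr8:129582004-129595388 with the combination (13.4 kb, enrichment 7.51) and in its strongest part chr8:129587556-129594858 with OTX015 (7.30 kb, enrichment 11.8). The CCDC26 promoter peak was 3.32 kb wide at an enrichment of 6.64 with the combination and 3.10 kb wide at 10.9 with OTX015. It covered the window of 1 kb either side of the 5′ end in full in both lists, unlike at MYC and PVT1. A narrower peak of 1.94 kb beside the first had an enrichment of 10.6 with OTX015, and the combination peak over it 5.99.

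**Figure D5:**
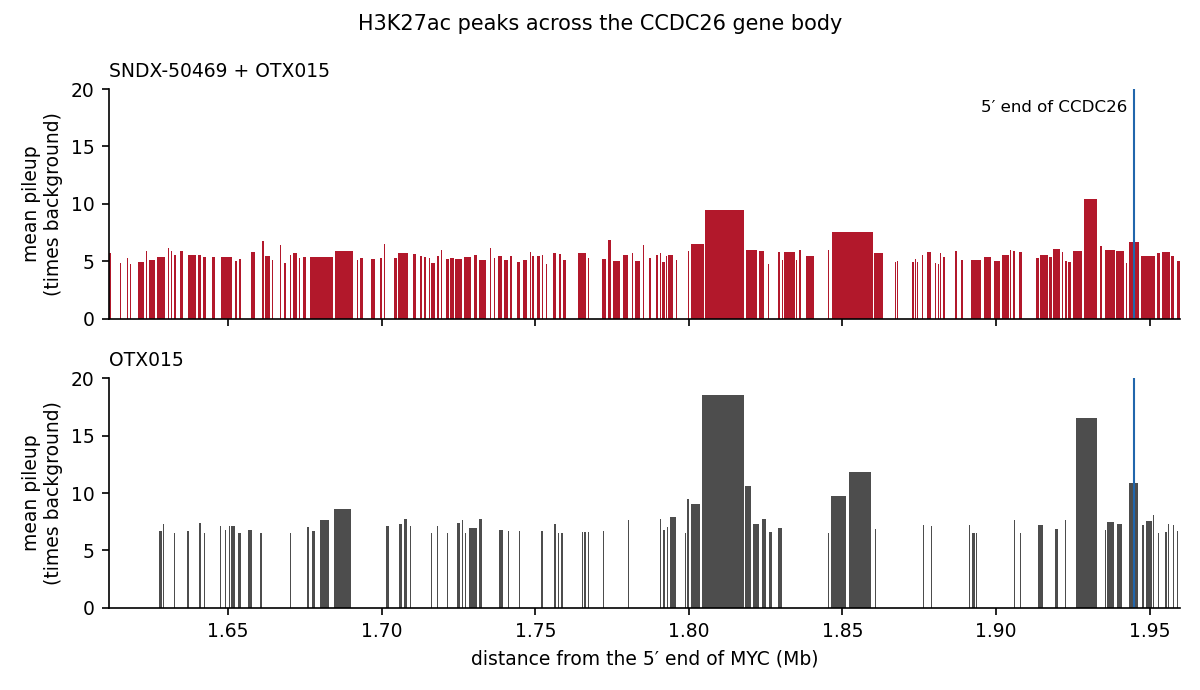
Enrichment of each H3K27Ac peak (y axis, mean pileup in multiples of background) across the CCDC26 gene body by distance from the 5′ end of MYC (x axis, Mb), with SNDX-50469 plus OTX015 above and OTX015 below; bar width is peak width. The tallest bars stand at the same places in both panels and reach 10.4 with the combination and 18.6 with OTX015, while low bars are more numerous with the combination.

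At these elements enrichment was lower with the combination, although the gene body as a whole had more cover. Cover across the first element was 13.1 kb with the combination and 13.5 kb with OTX015, and across the second 6.45 and 6.77 kb. Across the third it was 13.4 and 12.3 kb, and across the CCDC26 promoter peak 3.01 and 3.10 kb. Peaks with a −log10 q of at least 3 in either list formed 21 stretches in the region, of which 12 had a peak in both lists, 8 in the combination list alone and 1 in the OTX015 list alone. The shared part was 57.1% in the region, 50.4% in the rest of 8q24, 42.9% in the rest of chromosome 8 and 78.7% on other chromosomes. In the rest of 8q24, 59 of 137 stretches were in the combination list alone and 9 in the OTX015 list alone. In the rest of chromosome 8 these were 136 and 25 of 282, and on other chromosomes 107 and 78 of 868. Of the 12 shared stretches, enrichment was lower with the combination in 9, and the fold that the peak caller itself wrote in 7. A −log10 q of 3 takes a higher enrichment with OTX015 than with the combination. An enrichment of 10.3 went with 3.39 in the OTX015 list, and 6.95 with 3.26 in the combination list. Stretches that entered through OTX015 were therefore high there by choice, and these counts give no separate support for a lower enrichment. The 4 stretches at least 2 kb wide all lay in CCDC26, and their combination enrichment was 0.509 to 0.636 times that with OTX015, with a median of 0.620. All 4 passed a −log10 q of 3 with OTX015, the promoter stretch with OTX015 alone (3.94, against 2.93 with the combination). The peak caller's fold, which adds 1 fragment to pileup and background, was also lower in all 4. At the first element it was 6.03 with the combination and 8.61 with OTX015, and at the second 6.60 and 7.72. Enrichment elsewhere was lower with the combination in 22 of 22 such wide stretches in the rest of 8q24 (median ratio 0.719), in 41 of 41 in the rest of chromosome 8 (0.707) and in 319 of 323 on other chromosomes (0.650). The peak caller's fold was lower in 13 of 22, 26 of 41 and 253 of 323 of these. The lower enrichment at the CCDC26 elements was therefore shared with wide strong stretches throughout the libraries, and was not shown to be particular to this locus. The choice of stretches leans the same way in every area, so these ratios and counts are a description only. Background depth differs between the libraries by the same measure, and its part was not tested.

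The peaks of the region met those of the other list unevenly. Of the combination peaks, 487 of 1308 (37.2%, Wilson 95% interval 34.7 to 39.9%) met an OTX015 peak by at least 1 bp, and of the OTX015 peaks 512 of 735 (69.7%, 66.2 to 72.9%) met a combination peak. In the rest of 8q24 these shares were 38.5% (37.5 to 39.5%) and 59.0% (57.8 to 60.2%). With at least 50% of a peak under the other list, combination peaks of the region met it less often than those of the rest of 8q24 (13.99%, 12.2 to 16.0%, against 17.2%, 16.5 to 17.99%), and OTX015 peaks more often (51.2%, 47.5 to 54.8%, against 38.9%, 37.8 to 40.1%). These intervals cover counting error over peaks only. Combination cover was also denser in the region than in the rest of the band (35.6% and 28.1%), and its part in these meetings was not tested. Among combination peaks, 45.0% of the upper 25% by −log10 p met an OTX015 peak, against 27.8% of the lowest 25%. In the rest of 8q24 these were 48.2% and 26.7%. With at least 50% of the peak under the other list they were 19.3% (15.4 to 23.9%) and 13.1% (9.91 to 17.2%) in the region. In the rest of 8q24 they were then 22.3% and 13.9%.

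The stretch between PVT1 and CCDC26, 1250 kb with no protein-coding gene, held 549 peaks covering 33.6% with the combination and 250 peaks covering 9.79% with OTX015, a ratio of 3.43. It held 1.72 kb with the combination and 122 kb with OTX015 at the common enrichment. Its strongest combination peak, chr8:128841976-128842608, lay in no RefSeq gene, 1.11 Mb past MYC, with an enrichment of 7.50, against 6.99 for the OTX015 peak it met. It was one of 3 shared strong stretches where enrichment was higher with the combination, and the ratio there was 1.07. The longest stretch without a peak was 15.2 kb with the combination and 24.8 kb with OTX015. When peaks away from 5′ ends were stitched within 12.5 kb, as is done to rank super-enhancers, 3 domains met the region with the combination and 31 with OTX015. Domains were ranked by the summed width times fold of their peaks. This is a proxy made from peak lists, not a ranking by read signal, and it grows with every weak peak listed. With the combination 1 domain of 1586 kb held MYC and PVT1 together and ranked 12 of 18596, and a second of 2128 kb overlapped CCDC26 and ranked 6. With OTX015 PVT1 lay in a domain of 463 kb (rank 11 of 18982), MYC in one of 444 kb (rank 25) and the cluster in domains of which the highest spanned 203 kb (rank 18). Stitching within 5 kb gave 52 domains with the combination and 164 with OTX015. MYC then lay in a domain of 562 kb with the combination (rank 5 of 30370). With OTX015 it lay in a domain of 1 peak and 1.93 kb (rank 2392 of 27987). The place of MYC in a high-ranked OTX015 domain thus depended on the stitching distance. CCDC26 then lay in a combination domain of 398 kb (rank 7).

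Genes linked to MYC elsewhere in the genome were mostly within 2-fold between treatments. Of 12 genes listed for the MYC-MAX network, 7 had enough cover at their loci. With the combination 1 was at least 2-fold higher (MNT, a repressor that pairs with MAX, 2.55 kb with the combination and no peak with OTX015), 1 at least 2-fold lower (MLX, 0.379 kb with the combination and 0.999 kb with OTX015) and 5 neither. Over all loci compared, 39.4% were 2-fold higher and 20.5% lower. The median difference was 0.081 kb, against 0.481 kb over all loci compared. Of 14 genes for factors known to bind MYC enhancers in blood cells, 12 were compared. SMARCA4, the ATPase of a chromatin remodelling complex, had 9.29 kb with the combination and 2.93 kb with OTX015, and GATA2 also passed 2-fold higher. CEBPB passed 2-fold lower, and the other 9 did neither. Among those, RUNX1, a transcription factor of blood cell development, had 15.3 kb with the combination and 12.5 kb with OTX015. Of 10 other genes of 8q24, among them POU5F1B, GSDMC and CYRIB of the region itself, 7 were at least 2-fold higher and 0 lower, with a median difference of 21.1 kb. ASAP1, a regulator of the small GTPase ARF, had 212 kb with the combination and 63.0 kb with OTX015, and NSMCE2, a SUMO ligase subunit, 128 and 35.4 kb. The members' higher cover as deposited was thus shared with neighbours on the same chromosome arm. No gene of the 3 lists was 2-fold higher at the common enrichment. All 6 compared genes of the MYC-MAX network, 9 of 11 factors and 10 of 10 other genes of 8q24 were lower, against 95.9% of 5644 loci lower and 0.177% higher. ASAP1 then had 1.69 kb with the combination and 63.0 kb with OTX015.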

How the data were processed

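MOLM13 cells gave 1 H3K27ac library and 1 input library per treatment, and peak lists of the 2 H3K27ac libraries were used. Sample titles write H2K27Ac; the antibody label, H3K27Ac, was followed. Per the submitters' notes, tools included bcl2fastq 2.17, Trimmomatic 0.33, Bowtie 1.1.2 and MACS2 2.1.0, on GRCh38; use of the input as control is not given in the sources used here. The authors deposited for every broad peak a score (10 times the −log10 q, as whole numbers), a fold enrichment ratio of pileup over background averaged over the peak, a −log10 p and a −log10 q. No read totals accompany these lists. Background was solved as the Poisson mean that gives the lowest fold and −log10 p from a whole pileup (7 with the combination, 5 with OTX015), with a pseudocount of 1.

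Cover is the union of peaks. The rest of 8q24 began at 116.7 Mb. A tile or locus (gene with 10 kb either side) was compared where the larger cover was at least 0.5 kb, and counted at a 2-fold difference. Stitching left out peaks within 2.5 kb of 5′ ends. Gene bounds came from RefSeq, strands from GENCODE v44 by symbol. Named were the 3 members, peaks at their 5′ ends, the 5 strongest and 3 widest peaks per list, the most covered and most different windows, and leading members of each list; not all are described. Strong stretches and their counts by area were chosen after the data were seen. Members and lists were chosen with earlier results of these data known. Alternatives were stricter peaks, equal peak numbers, a common enrichment, merged peaks, other windows, overlaps, tiles and stitching. Cover, background and stitching were tested on simulated data. Tables were made with pandas 2.3.3, numpy 2.4.6 and scipy 1.17.1 under Python 3.11.15, and plots with matplotlib 3.10.9.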

Additional observations from a re-analysis of the deposited data

How the results depend on the processing

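At the common enrichment over background the direction turned for every value of cover between treatments: the region's ratio was 0.0985, and the differences, combination minus OTX015, were −4.44 kb at the MYC locus, −68.9 kb at PVT1, −62.4 kb at CCDC26 and −41.0 kb in the enhancer cluster, against 7.53, 81.4, 86.0 and 47.4 kb as deposited. That limit removed combination peaks alone, so the turn was largely set by it. With a −log10 q of at least 2 the differences were smaller, at 1.504, 34.9, 42.9 and 26.2 kb. With peaks within 1 kb merged the MYC difference was 14.2 kb and the PVT1 difference 125.9 kb. For MYC the gene body alone gave 2.07 kb and the 5′ end with 1 kb either side 0.387 kb, and 250 kb either side of the cluster's centre gave 137.9 kb. With overlap of at least 50% of a peak, 13.99% of combination peaks and 51.2% of OTX015 peaks met the other list. In tiles of 50 kb, 0% were 2-fold lower. At the common enrichment, chosen for tiles after seeing the data, 0.855% of tiles were 2-fold higher and 96.2% lower. Stitching within 5 kb gave 52 combination and 164 OTX015 domains. The remaining 21 values, among them all 7 at equal numbers of peaks (region ratio 2.18), stayed within 1.5 times. The region over the rest of 8q24 with the combination lay between 1.02 and 1.46, and with OTX015 between 0.915 and 1.14. Background differed between the libraries, peaks under 6.54 times background were listed only with the combination, and no replicate was at hand. No paired analysis was possible because there was 1 library per treatment.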

Other observations

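RefSeq places 41 genes in or across the region, 4 of them protein-coding and 23 long noncoding RNAs. Of the 38 beside MYC, PVT1 and CCDC26, 29 had more cover of the gene body with the combination, 2 had less (CCAT2 and MIR1205, by under 0.1 kb each) and 7 were equal, 6 of them without a peak in either list. At the common enrichment 2 of the 38 had more cover with the combination, 24 less and 12 the same, and the genes named next all had less. CYRIB, which encodes a binding partner of the GTPase RAC1 and runs past the end of the region, had 85.1 kb with the combination and 38.5 kb with OTX015. LINC00824, a noncoding RNA gene between PVT1 and CCDC26, had 52.4 kb with the combination and 13.8 kb with OTX015. LOC105375751, which begins before the region, differed by 26.2 kb in the same direction. GSDMC, a gasdermin gene just upstream of CCDC26, had 24.4 kb with the combination and 7.81 kb with OTX015, yet was the 1 gene whose 5′ end had a peak with OTX015 alone. CASC8, a noncoding RNA gene upstream of MYC around POU5F1B, had 41.7 kb with the combination and 28.8 kb with OTX015.

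Of the 23 genes of the region with a strand, 13 were marked by a peak inside 1 kb of their 5′ end in both lists, 8 with the combination alone, 1 with OTX015 alone and 1 in neither. The share with the combination alone was 34.8% in the region, 32.7% of 275 genes in the rest of 8q24 and 32.2% of 1107 in the rest of chromosome 8, and that with OTX015 alone 4.35%, 11 of 275 genes and 6.14%. The gene with neither was CASC11, a noncoding RNA gene that begins beside the MYC promoter on the other strand. These genes outside the rule for named genes (GSDMC, CASC8 and CASC11) were singled out after their values were seen.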
